A study of Mus musculus with 2 samples.

Results

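The genes described here encode the subunits, regulators and assembly chaperones of the proteasome and of its immune form, the immunoproteasome, in CD4+ T cells of BDC mice. They were taken by symbol, as every gene named Psma, Psmb, Psmc, Psmd, Psme, Psmf or Psmg followed by a digit, which gave 50 of the 19938 genes on the array. Within them, the 3 immunosubunit genes *Psmb8*, *Psmb9* and *Psmb10* and the PA28 genes *Psme1* and *Psme2* were set against the other 45. Members were chosen by symbol alone, and a measured value entered only where a gene had several probe sets, of which the one with the highest mean over both arrays was used.

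The compared conditions were ND αCD4, a nondepleting antibody to CD4 (clone YTS177), and an isotype control Ab (clone 2A3). BDC mice are NOD mice, a strain that develops autoimmune diabetes, which carry the transgenic T cell receptor of a β cell–reactive CD4+ clone, so both conditions share the NOD background and that receptor. The labels give 8 weeks of age, 1 mg of antibody and 48 hours of treatment in vivo, whereas the methods give dose ranges that differ between the antibodies. Live CD3+CD4+ T cells were sorted from the pancreatic lymph nodes (PLN), which the methods state were pooled from 3 mice, and hybridized to 1 array per condition. With 1 array per condition, no difference below has a replicate check, and no p value or error over mice can be given.

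The proteasome is the protease that degrades proteins tagged with ubiquitin. Its 20S core is a barrel of 4 stacked rings, with outer α rings that form the gate and inner β rings that hold the catalytic sites, and the 19S regulatory particle at the barrel's end binds, unfolds and threads the substrate. Interferon γ induces a set of alternative catalytic β subunits that replace the constitutive ones in newly built cores. This immunoproteasome, together with the interferon-inducible PA28 cap, shapes the peptides loaded on MHC class I, and lymphocytes carry much of it at rest. Dividing and activated T cells are known for high proteasome use, since regulators of the cell cycle are removed by it.

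Array signals are the deposited log2 values, and the log2 ratio is ND αCD4 minus isotype control, so a value below 0 is a lower signal after ND αCD4. Background was set by 1210 probe sets of odorant and pheromone receptors, genes that T cells are not known to use, as their 95th percentile in each array, 7.56 for ND αCD4 and 7.64 for isotype control. Genes above background in either array count as detected. Over all probe sets, the median was 8.15 in both arrays. Of the 50 proteasome genes, 49 were detected. The exception was *Psma8*, an α subunit of the testis, at 6.60 in the ND αCD4 array and 6.69 in the isotype control array. *Psmb11*, the catalytic β subunit of the thymic cortex epithelium, lay just above that level, at 7.67 in the ND αCD4 array and 7.76 in the isotype control array.

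Proteasome genes were lower after ND αCD4 almost throughout, each by a small amount. The log2 ratio was below 0 for 47 of the 49 detected members (95.9%), against 52.7% of all 13222 detected genes. The median log2 ratio of the members was -0.17, against -0.01 over all detected genes. The middle of the distribution ran between -0.26 and -0.09 for the members (quartiles) and between -0.10 and 0.07 for all detected genes. By size, 10 members were at least 1.2-fold lower (20.4%, against 5.79% of all detected genes), and 0 were at least 1.2-fold higher, against 2.85% of all detected genes. None reached 1.5-fold in either direction, a fold that 1.01% of all detected genes passed downward and 0.212% upward. Set against all detected genes, the members thus had the larger share of ratios below 0 and of decreases past 1.2-fold. Among 49 genes, a count of 0 at 1.5-fold is near the share over all detected genes, and nothing is read from it. The SD of the log2 ratio over the members was 0.109, less than the 0.173 over all detected genes.

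**Figure D1:**
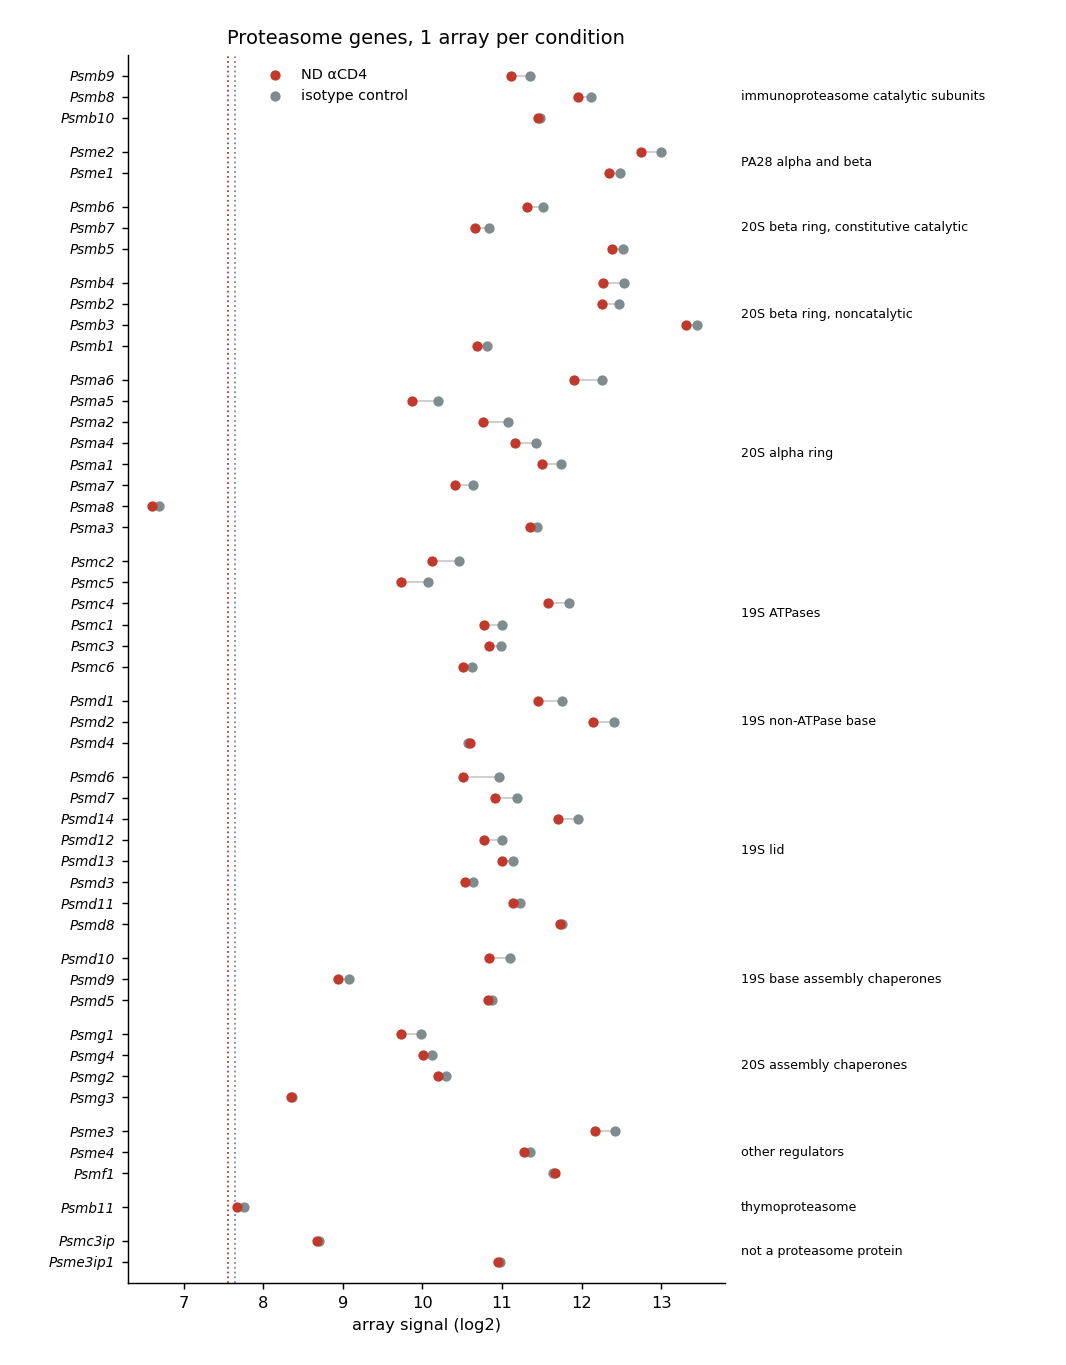
Array signal (log2, horizontal axis) of the 50 proteasome genes by role, with 1 point for the ND αCD4 array (red) and 1 for the isotype control array (gray), and dotted lines at the background level of each array. The red point lies left of the gray one for all genes but *Psmd4* and *Psmf1*, and only *Psma8* lies below both lines.

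**Figure D2:**
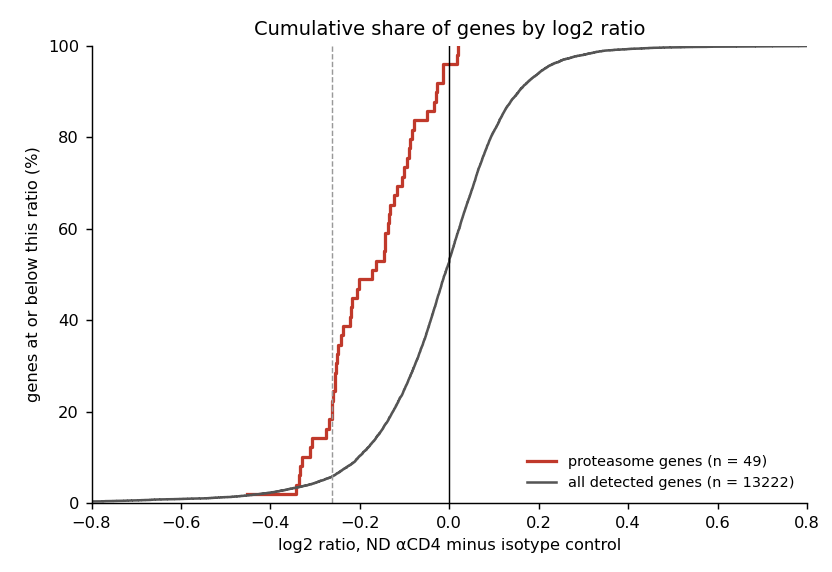
Cumulative percentage of genes (vertical axis) at or below each log2 ratio of ND αCD4 minus isotype control (horizontal axis), for the 49 detected proteasome genes (red) and all 13222 detected genes (gray). The dashed line marks 1.2-fold lower, which 20.4% of the proteasome genes and 5.79% of all detected genes passed.

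A scale for these small ratios came from genes measured by exactly 2 detected probe sets. Over 550 such genes, the log2 ratio of a probe set varied around the mean of its gene with an SD of 0.0929, called here the SD between probe sets. A difference of 2 ratios varies more than a single ratio does. This SD covers differences between probes on the same arrays, and not differences between mice, sorts or hybridizations. By it, 37 of the 49 members lay more than 1 SD below 0, against 26.5% of all detected genes, and 0 lay more than 1 SD above. For 5 members there were several probe sets, 11 in all, and all 11 had a ratio below 0, with ratios of the same gene within 0.0787 of each other. For example, *Psma5* gave -0.33 and -0.31, and the 3 probe sets of *Psma3* gave -0.12, -0.17 and -0.09. Such further probe sets can match copies of a gene elsewhere in the genome, and their positions were not determined.

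The immunoproteasome and PA28 genes, like most other proteasome genes, were lower after ND αCD4. All 5 were below 0 and 0 of 5 passed 1.2-fold, with a median log2 ratio of -0.16. Among 5 genes, a count of 0 is near the 5.79% of all detected genes that were at least 1.2-fold lower, and nothing is read from it. Of the other 45 members, 43 encode proteasome proteins or their chaperones, of which 42 were detected. Among these, 40 were below 0 and 10 were at least 1.2-fold lower (against 52.7% and 5.79% of all detected genes), with a median of -0.20. The medians differed by 0.04, a description with no test. *Psmc3ip*, which encodes a meiotic recombination factor, and *Psme3ip1*, whose product binds PA28γ, carry such symbols without encoding a proteasome subunit. Their ratios were both -0.03.

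*Psmb9*, encoding the β1i immunosubunit (LMP2), measured 11.11 in the ND αCD4 array and 11.35 in the isotype control array, a log2 ratio of -0.24. *Psmb8*, encoding β5i (LMP7), which carries the chymotrypsin-like site, measured 11.95 in the ND αCD4 array and 12.11 in the isotype control array (-0.16). *Psmb10*, encoding β2i (MECL-1), measured 11.46 in the ND αCD4 array and 11.47 in the isotype control array (-0.01). Of the immunosubunits, *Psmb9* and *Psmb8* were thus lower in the ND αCD4 array by more than the SD between probe sets, and *Psmb10* was level between the arrays. PA28 is a ring of α and β subunits that opens the core's gate without ubiquitin or ATP. *Psme2*, the β subunit gene, measured 12.75 in the ND αCD4 array and 13.00 in the isotype control array (-0.25). *Psme1*, the α subunit gene, measured 12.34 in the ND αCD4 array and 12.48 in the isotype control array (-0.14). Both PA28 genes were on the lower side after ND αCD4. A further probe set is annotated to *Psme2* together with *Psme2b*, a copy of it, and measured 12.34 in the ND αCD4 array and 12.43 in the isotype control array, a ratio of -0.09. As it carries both symbols it was not used for *Psme2*, and the 2 probe sets differed by more than the SD between probe sets.

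Each immunosubunit replaces 1 constitutive subunit, so the RNA signals of each pair of genes were compared. They do not show which subunits the assembled proteasomes held. At the β5 site, *Psmb8* was set against *Psmb5*, which measured 12.38 in the ND αCD4 array and 12.52 in the isotype control array (-0.14). The difference of the log2 ratios, immunosubunit minus constitutive subunit, was -0.03. At the β1 site, *Psmb9* was set against *Psmb6*, encoding the caspase-like subunit, at 11.31 in the ND αCD4 array and 11.51 in the isotype control array (-0.20), and the difference was -0.04. These pairs moved together within the SD between probe sets. At the β2 site, *Psmb10* was set against *Psmb7*, encoding the trypsin-like subunit, at 10.66 in the ND αCD4 array and 10.83 in the isotype control array (-0.17). Here the difference was 0.16, larger than that SD, with the constitutive gene lower and the immunosubunit gene level.

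**Figure D3:**
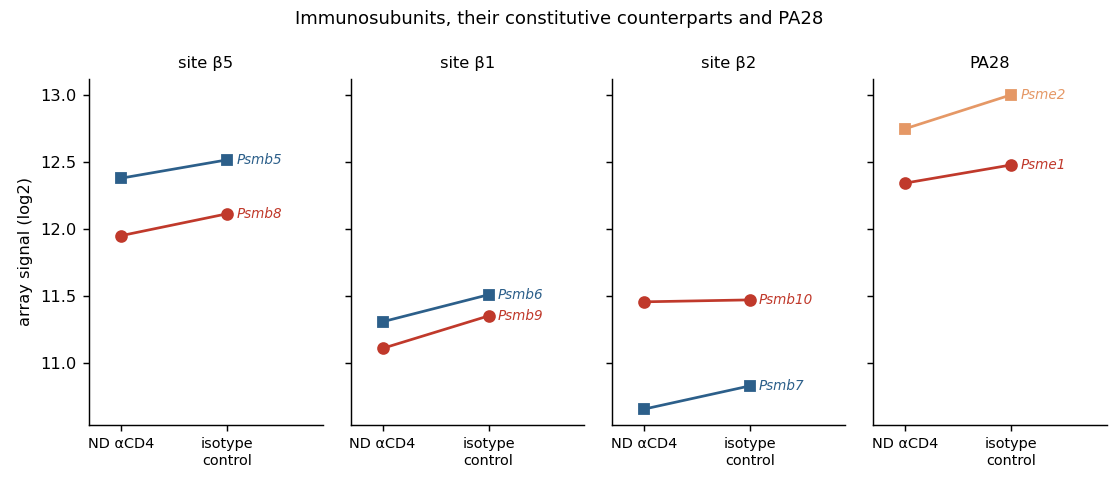
Array signal (log2, vertical axis) in the ND αCD4 and isotype control arrays, 1 array each, for the immunosubunit genes (red circles) with the constitutive gene of the same site (blue squares), and for both PA28 genes. The lines of *Psmb8* and *Psmb5*, and of *Psmb9* and *Psmb6*, run nearly parallel, *Psmb10* is nearly flat, and the heights of different genes cannot be compared because their probes differ.

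Promoter windows show what these genes hold in common, or do not, ahead of their start sites. RefSeq windows of build GRCm38.p6 (250 bases before the start site and 50 from it) were found for 42 of the 50 members, as 46 windows. They are reference sequence, and were not read from NOD mice. Both strands were searched for 4 elements: the IRF-bound ISRE core, the ARE core (TGANNNNGC) bound by Nrf1 (the inducer of proteasome genes, *Nfe2l1*) and by Nrf2, the NF-Y-bound CCAAT box, and the NF-κB-bound κB core. The ISRE core is a pair of GAAA repeats spaced by any pair of bases, and the κB core is GGGA and CC spaced by any 4. An ARE core match overlapped an ISRE core match in 1 member window. Shown are *Psmb8* (the ARE core in capitals), *Psmb9* (the CCAAT box in capitals, on the opposite strand as ATTGG), *Psme1* (the ISRE core in capitals, on the opposite strand), and *Psmd6*, the member with the lowest log2 ratio, which held no match to any of the 4. Each is given 5′ to 3′ on the gene's own strand.
Psmb8 promoter, chr17:34197945-34198244, plus strand: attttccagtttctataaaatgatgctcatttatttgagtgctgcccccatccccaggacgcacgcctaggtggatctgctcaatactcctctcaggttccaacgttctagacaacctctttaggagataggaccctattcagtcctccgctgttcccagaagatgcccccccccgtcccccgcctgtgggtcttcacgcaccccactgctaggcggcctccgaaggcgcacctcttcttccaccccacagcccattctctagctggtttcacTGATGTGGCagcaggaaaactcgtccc
Psmb9 promoter, chr17:34187281-34187580, minus strand: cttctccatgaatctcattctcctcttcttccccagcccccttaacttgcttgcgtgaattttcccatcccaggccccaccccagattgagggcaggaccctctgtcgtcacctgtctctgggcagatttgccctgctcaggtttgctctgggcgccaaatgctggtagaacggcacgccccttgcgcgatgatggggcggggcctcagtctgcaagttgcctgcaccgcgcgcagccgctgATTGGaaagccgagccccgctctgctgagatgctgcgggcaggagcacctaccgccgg
Psme1 promoter, chr14:55578244-55578543, plus strand: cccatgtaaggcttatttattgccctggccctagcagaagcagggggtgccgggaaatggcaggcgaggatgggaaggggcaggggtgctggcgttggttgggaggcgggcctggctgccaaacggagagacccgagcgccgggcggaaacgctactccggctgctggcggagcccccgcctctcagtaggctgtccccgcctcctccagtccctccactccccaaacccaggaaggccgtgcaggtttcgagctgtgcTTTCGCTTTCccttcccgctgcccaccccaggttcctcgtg
Psmd6 promoter, chr14:14120896-14121195, minus strand: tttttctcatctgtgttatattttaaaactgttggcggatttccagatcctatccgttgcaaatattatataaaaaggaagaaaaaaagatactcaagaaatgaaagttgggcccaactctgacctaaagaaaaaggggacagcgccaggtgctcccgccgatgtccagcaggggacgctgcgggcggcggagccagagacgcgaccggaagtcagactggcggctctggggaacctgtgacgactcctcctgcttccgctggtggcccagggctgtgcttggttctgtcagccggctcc

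Positions are counted with the first transcribed base as 1 and the base before it as -1. The ARE core match of *Psmb8* lay at 24 to 32, past the start site. The CCAAT box of *Psmb9* lay at -8 to -4, with an ARE core match at -60 to -52. The ISRE core of *Psme1* lay at 10 to 19, past the start site. The *Psmb9* window overlaps that of *Tap1*, the peptide transporter gene on the other strand, over 275 bases (chr17:34187306-34187580), and *Psmb9*, *Tap1*, *Psmb8* and *Tap2* are neighbors in the MHC region of chromosome 17. *Tap1* measured 12.36 in the ND αCD4 array and 12.51 in the isotype control array (-0.15). *Tap2* measured 11.42 in the ND αCD4 array and 11.43 in the isotype control array (-0.01). Of these 4 neighbors, 3 were thus lower after ND αCD4 and *Tap2* was level. *Psme1* and *Psme2* lie close together on chromosome 14 with *Emc9* between them, and *Emc9* was level at 8.82 in the ND αCD4 array and 8.81 in the isotype control array (0.01).

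Windows with the ISRE core were few. It was in 10.9% of member windows, against 3.44% of all 32851 windows. Its 5 members were *Psmb3*, *Psmd4*, *Psmd9*, *Psme1* and *Psmg4*, 1 of them an immunoproteasome or PA28 gene. Members without a window could not be searched. The median log2 ratio of these 5 was -0.14, against -0.22 for the 37 other members with a window. The ARE core was more common, in 58.7% of member windows against 41.3% of all windows. The 25 members that held it had a median log2 ratio of -0.16, against -0.24 for the 17 members without it. The CCAAT box was in 34.8% of member windows and 37.4% of all windows, with a median of -0.23 for the 16 members that held it and -0.15 for the other 26. The κB core was in 23.9% of member windows and 20.7% of all windows, with a median of -0.11 for the 11 members that held it and -0.24 for the other 31. Every one of these medians was below 0, and a match of letters is not a bound site.

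In the 20S core, genes of the α and constitutive β rings were on the lower side after ND αCD4. Of these, *Psma3* was within the SD between probe sets. All 14 detected genes of the α and constitutive β rings were below 0, and 5 of them passed 1.2-fold, with a median of -0.21. Over all detected genes, 52.7% were below 0 and 5.79% were at least 1.2-fold lower, the shares to set beside each count by role below. In the α ring, whose gene *Psma8* was not detected, 4 of 7 genes passed 1.2-fold, with a median of -0.26. *Psma6*, encoding α1, was the lowest, at 11.91 in the ND αCD4 array and 12.25 in the isotype control array (-0.34). *Psma5* measured 9.87 in the ND αCD4 array and 10.20 in the isotype control array (-0.33), and *Psma2* measured 10.76 in the ND αCD4 array and 11.07 in the isotype control array (-0.31). *Psma4* was the member just inside the 1.2-fold rule, at 11.17 in the ND αCD4 array and 11.43 in the isotype control array (-0.26). *Psma1* and *Psma7*, at -0.24 and -0.22, came next. *Psma3*, encoding α7, was the highest of the ring, at 11.35 in the ND αCD4 array and 11.44 in the isotype control array (-0.09). The ring's members are present in equal numbers in the assembled core, and their ratios spanned this range with none above 0.

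In the β ring, the constitutive catalytic genes had a median of -0.17 and the noncatalytic genes a median of -0.18. *Psmb4*, encoding β7, was the only β gene past 1.2-fold, at 12.27 in the ND αCD4 array and 12.54 in the isotype control array (-0.27). *Psmb2* measured 12.26 in the ND αCD4 array and 12.47 in the isotype control array (-0.21). *Psmb3* measured 13.31 in the ND αCD4 array and 13.45 in the isotype control array (-0.14). *Psmb1*, encoding β6, measured 10.69 in the ND αCD4 array and 10.81 in the isotype control array (-0.12). All 4 noncatalytic genes were on the lower side after ND αCD4. The thymic *Psmb11* had a ratio of -0.09 close to the background level.

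Genes of the 19S regulatory particle were lower to the same degree, with 16 of 17 below 0, 5 past 1.2-fold and a median of -0.22. They varied more among themselves than the core genes, with an SD over genes of 0.123 for the 19S particle and 0.0791 for the α and constitutive β rings. The base holds a ring of 6 ATPases, Rpt1 to Rpt6, that unfold the substrate. All 6 ATPase genes were below 0, with a median of -0.24. *Psmc2* (Rpt1) was the lowest, at 10.12 in the ND αCD4 array and 10.46 in the isotype control array (-0.34), followed by *Psmc5* (Rpt6), at 9.73 in the ND αCD4 array and 10.07 in the isotype control array (-0.33). *Psmc4* (Rpt3) was the member just outside the 1.2-fold rule, at 11.58 in the ND αCD4 array and 11.84 in the isotype control array (-0.26). *Psmc1* (Rpt2) and *Psmc3* (Rpt5) had ratios of -0.22 and -0.15. *Psmc6* (Rpt4) was the highest, at 10.51 in the ND αCD4 array and 10.62 in the isotype control array (-0.11).

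The non-ATPase genes of the base were split. *Psmd1* (Rpn2), a scaffold of the base, measured 11.45 in the ND αCD4 array and 11.76 in the isotype control array (-0.31). *Psmd2* (Rpn1), which docks shuttle proteins that bring ubiquitinated substrates, measured 12.15 in the ND αCD4 array and 12.40 in the isotype control array (-0.26). *Psmd4* (Rpn10), a ubiquitin receptor, measured 10.59 in the ND αCD4 array and 10.58 in the isotype control array (0.02). It was 1 of the 2 members not lower in the ND αCD4 array, and the difference was within the SD between probe sets.

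The lid, which removes ubiquitin chains, held the member with the lowest ratio of all. *Psmd6* (Rpn7) measured 10.51 in the ND αCD4 array and 10.96 in the isotype control array, a log2 ratio of -0.45, or 1.37-fold lower. Of all detected genes, 229 (1.73%) had a lower ratio. *Psmd7* (Rpn8), the partner of the lid's deubiquitinase, was the other lid gene past 1.2-fold, at 10.91 in the ND αCD4 array and 11.19 in the isotype control array (-0.28). *Psmd14* (Rpn11), that deubiquitinase, measured 11.70 in the ND αCD4 array and 11.95 in the isotype control array (-0.25). The other lid genes were *Psmd12* at -0.22, *Psmd13* at -0.13, *Psmd3* at -0.10 and *Psmd11* at -0.08. *Psmd8* (Rpn12) was the highest, at 11.73 in the ND αCD4 array and 11.76 in the isotype control array (-0.03). All 8 lid genes were below 0, with a median of -0.18.

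Assembly chaperones and other regulators had medians nearer 0 than the 20S rings (-0.21) and the 19S particle (-0.22). No gene of either passed 1.2-fold, which *Psmd10*, *Psme3* and *Psmg1* fell just short of. Among so few genes this count is near the 5.79% of all detected genes at least 1.2-fold lower, and nothing is read from it. Chaperones of the 19S base had a median of -0.14. Among them *Psmd10*, encoding gankyrin, measured 10.83 in the ND αCD4 array and 11.09 in the isotype control array (-0.26), *Psmd9* had a ratio of -0.14, and *Psmd5* measured 10.83 in the ND αCD4 array and 10.88 in the isotype control array (-0.05). The 4 genes of the 20S chaperones PAC1 to PAC4 had a median of -0.11. *Psmg1* (PAC1) was the lowest, at 9.73 in the ND αCD4 array and 9.98 in the isotype control array (-0.25), *Psmg4* and *Psmg2* had ratios of -0.12 and -0.09, and *Psmg3* (PAC3) was the highest, at 8.35 in the ND αCD4 array and 8.36 in the isotype control array (-0.01). Of the other caps and inhibitors, *Psme3*, encoding the nuclear PA28γ, measured 12.17 in the ND αCD4 array and 12.42 in the isotype control array (-0.25). *Psme4*, encoding PA200, measured 11.27 in the ND αCD4 array and 11.35 in the isotype control array (-0.08). *Psmf1*, encoding PI31, which inhibits the core in vitro, measured 11.66 in the ND αCD4 array and 11.65 in the isotype control array (0.02). It was the other member not lower after ND αCD4, again within the SD between probe sets.

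**Figure D4:**
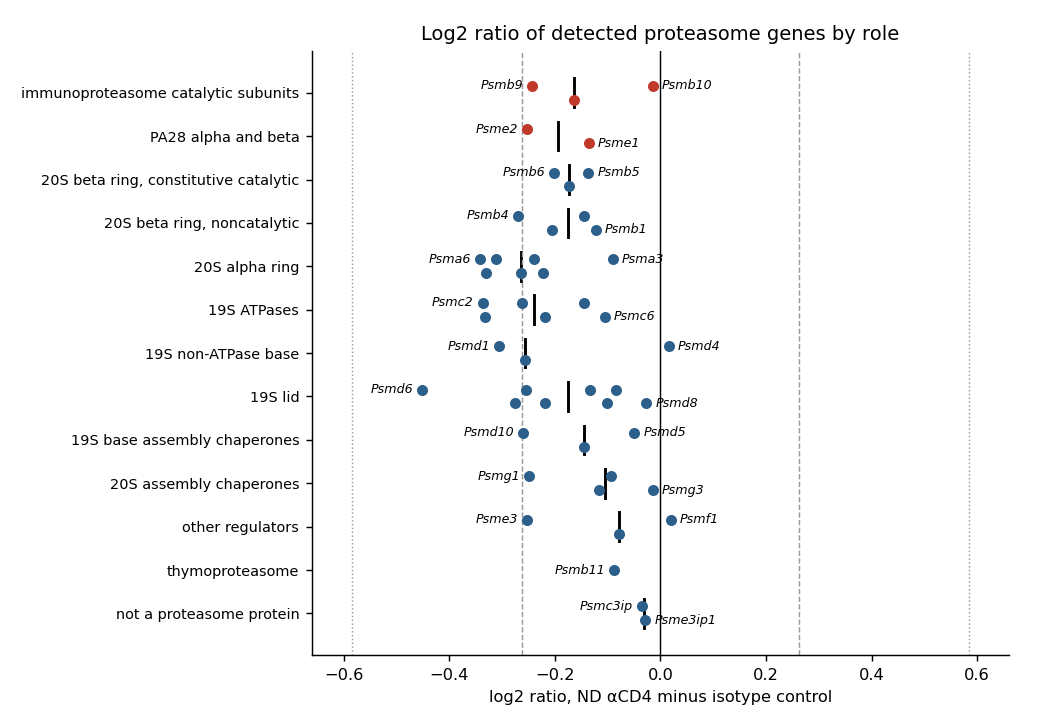
Log2 ratio of ND αCD4 minus isotype control (horizontal axis) of the 49 detected proteasome genes by role (rows), 1 point per gene with the immunoproteasome and PA28 genes in red, black bars at the row medians, dashed lines at 1.2-fold and dotted lines at 1.5-fold. Row medians lie between -0.26 (20S α ring and 19S non-ATPase base) and -0.03 (*Psmc3ip* and *Psme3ip1*), *Psmd6* is the leftmost point at -0.45, and no point reaches the dotted lines.

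Across the 49 detected members, the log2 ratio bore little relation to the mean array signal (Spearman's rho = -0.15, Pearson's r = -0.20). The points are genes of the same pair of arrays, not independent replicates, and no test was made.

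Genes that work with the proteasome but carry other symbols were mixed. Of 13 detected partners (18 symbols listed), 9 were below 0 and 4 above, with a median of -0.09. Over all detected genes, 52.7% were below 0 and 5.79% were at least 1.2-fold lower, and nothing is read from counts in so few partners. *Pomp*, which guides maturation of the 20S core, was the only one past 1.2-fold, at 10.39 in the ND αCD4 array and 10.69 in the isotype control array (-0.30). *Uchl5*, a deubiquitinase bound to the 19S particle, measured 9.63 in the ND αCD4 array and 9.88 in the isotype control array (-0.25), and *Sem1*, the small Rpn15 subunit, measured 9.96 in the ND αCD4 array and 10.17 in the isotype control array (-0.21). *Zfand5*, a proteasome activator, lay on the other side, at 10.37 in the ND αCD4 array and 10.14 in the isotype control array (0.22). Of 6 ubiquitin and E1 genes, only *Uba6*, an E1 enzyme, was measured by a probe set with its symbol alone, at 10.28 in the ND αCD4 array and 10.46 in the isotype control array (-0.17).

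The genes for Nrf1 and its processing had a median of -0.04, with 5 of 7 detected genes below 0 (9 listed) and 0 past 1.2-fold. Over all detected genes, 52.7% were below 0 and 5.79% were at least 1.2-fold lower, and nothing is read from counts among 7 genes. Nrf1 is made in the endoplasmic reticulum, extracted by p97 and stripped of its sugars before it acts on proteasome genes. *Nfe2l1*, encoding Nrf1, measured 10.94 in the ND αCD4 array and 10.98 in the isotype control array (-0.04). *Vcp*, encoding p97, measured 11.54 in the ND αCD4 array and 11.76 in the isotype control array (-0.22). *Ngly1*, the deglycosylase, measured 10.61 in the ND αCD4 array and 10.40 in the isotype control array (0.21). *Nfe2l2*, encoding Nrf2, measured 11.67 in the ND αCD4 array and 11.56 in the isotype control array (0.11), and *Mafg*, a small Maf partner, had a ratio of -0.11.

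Genes of MHC class I antigen processing, which uses the immunoproteasome's peptides, had ratios below 0, some of them by very little. Of the 10 detected genes (12 listed), 10 were below 0, against 52.7% of all detected genes, with a median of -0.12. None of them passed 1.2-fold, a count near the 5.79% of all detected genes at least 1.2-fold lower, and nothing is read from it. *Canx*, encoding the chaperone calnexin, measured 12.88 in the ND αCD4 array and 13.10 in the isotype control array (-0.23). *Nlrc5*, the transactivator of class I genes, measured 12.65 in the ND αCD4 array and 12.81 in the isotype control array (-0.16). *Tapbp*, encoding tapasin, measured 12.58 in the ND αCD4 array and 12.73 in the isotype control array (-0.14). *B2m*, the light chain gene, was level, with a ratio of -0.02. *Tap2*, *Tapbpl* and *Erap1* had ratios of -0.01, -0.0023 and -0.07. These, like that of *B2m*, lay within the SD between probe sets.

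Interferon signaling genes had ratios on both sides of 0, and most genes responsive to interferon γ were lower after ND αCD4. Of 13 detected signaling genes (13 listed), 8 were above 0 and 5 below (against 52.7% of all detected genes below 0), with a median of 0.05. *Ifngr1*, a chain of the interferon γ receptor, was the only one past 1.2-fold, at 11.97 in the ND αCD4 array and 11.59 in the isotype control array (0.37). *Ifng* itself measured 8.27 in the ND αCD4 array and 8.02 in the isotype control array (0.24). *Stat2*, a subunit of ISGF3, measured 11.37 in the ND αCD4 array and 11.51 in the isotype control array (-0.15), and *Irf1*, an inducer of the immunosubunit genes, measured 12.11 in the ND αCD4 array and 12.26 in the isotype control array (-0.14). Of 10 detected genes that respond to interferon γ (17 listed, 11 measured), 9 were below 0 and 6 were at least 1.2-fold lower. Over all detected genes these shares were 52.7% and 5.79%. The median of the 10 genes was -0.33. *Irgm1*, an immunity-related GTPase gene, measured 12.01 in the ND αCD4 array and 12.43 in the isotype control array (-0.42). *Cd274*, encoding PD-L1, measured 10.79 in the ND αCD4 array and 11.18 in the isotype control array (-0.39). The GTPase gene *Iigp1* and the chemokine gene *Cxcl10* each had a ratio of -0.36. The list's other chemokine gene, *Cxcl9*, was not above background in either array.

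**Figure D5:**
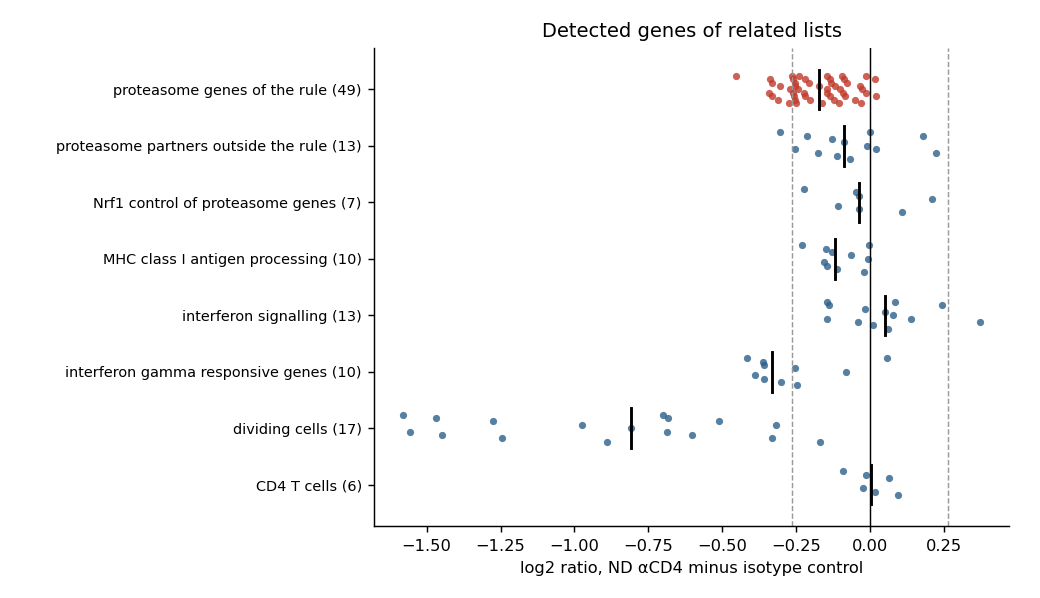
Log2 ratio of ND αCD4 minus isotype control (horizontal axis) of detected genes in the proteasome set (red) and in related lists (blue), 1 point per gene with the number of genes in brackets, black bars at the medians and dashed lines at 1.2-fold. Medians are -0.17 for the proteasome genes, -0.33 for genes responsive to interferon γ and -0.81 for genes of dividing cells, and the CD4 T cell markers are centered on 0.

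Genes of dividing cells were lower after ND αCD4. Detected markers of CD8 T cells, B cells and macrophages were above 0, and those of dendritic cells were slightly below 0. *Klrd1*, the only detected NK cell gene, and the B cell gene *Cd79a* passed the filter through the ND αCD4 array alone. Nothing is read from the direction of either. All 17 detected genes of dividing cells (18 listed) were below 0, against 52.7% of all detected genes. Of them, 16 were at least 1.2-fold lower (against 5.79%) and 13 at least 1.5-fold lower (against 1.01%). Their median was -0.81, and their summed signal (log2) was 13.75 in the ND αCD4 array and 14.48 in the isotype control array. *Birc5* and *Bub1*, both needed for mitosis, were above background in the isotype control array only, so the filter fixed their place in these counts. Fewer dividing cells and less RNA per cell cannot be told apart in sorted bulk cells, and the part of cell division in the proteasome result was not tested. Markers of the labelled cell type were high in both arrays, the lowest at 12.14 in the ND αCD4 array and 12.08 in the isotype control array, and the 6 measured CD4 T cell genes had ratios between -0.09 and 0.09, with a summed signal of 15.82 in the ND αCD4 array and 15.81 in the isotype control array. *Cd8a* and *Cd8b1*, which the CD4+ gate should not favor, summed to 12.28 in the ND αCD4 array and 11.76 in the isotype control array. Their log2 ratios were 0.72 for *Cd8a* (1.65-fold higher after ND αCD4) and 0.45 for *Cd8b1* (1.37-fold higher). B cell genes, all 5 measured ones above 0 (*Cd79a* above background after ND αCD4 only), summed to 11.24 in the ND αCD4 array and 11.13 in the isotype control array. Among them *Pax5* and *Cd22*, at 0.04 and 0.06, were within the SD between probe sets. Over all detected genes 52.7% were below 0, and nothing is read from a count among 5 genes. Macrophage and monocyte genes, 3 of 6 detected, summed to 10.60 in the ND αCD4 array and 10.47 in the isotype control array. Dendritic cell genes, 3 of 6 detected, summed to 10.25 in the ND αCD4 array and 10.27 in the isotype control array. NK cell genes, 1 of 4 detected (*Klrd1*, above background after ND αCD4 only), summed to 9.31 in the ND αCD4 array and 8.68 in the isotype control array. Each sum is over all measured genes of a list, detected or not. The macrophage, dendritic cell and NK cell sums thus hold background signal and are not levels of those cells. From the macrophage, dendritic cell and NK cell lists, *Csf1r*, *Adgre1*, *Cd14*, *Itgax*, *Flt3*, *Xcr1*, *Ncr1*, *Klrb1c* and *Klrk1* were not above background in either array. The macrophage genes *Cd68*, *Lyz2* and *Fcgr1* and the dendritic cell genes *Zbtb46*, *Siglech* and *Batf3* were above it in both. The part of these cells in the proteasome result was not tested.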

How the data were processed

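Total RNA of CD3+CD4+ T cells sorted from PLN was hybridized to a single array for each antibody. Values were deposited by the authors on the log2 scale for each probe set, which was inferred from their range, 2.52 to 14.7. Per the submitters' processing notes they come from Affymetrix Expression Console, with version, background correction and normalization not stated there, and no further scaling was applied. The array version in the methods is later than that of the platform annotation. The labels name the BDC clone with a number other than the paper's, and give age and agent under each other's heading.

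Probe sets with exactly 1 symbol in the platform annotation (21789 of 35557) were kept, and the probe set with the highest mean stood for a gene. All 50 members matched RefSeq by gene identifier. Size rules of 1.2-fold and 1.5-fold stood in for a test, as none is possible with 1 array per condition. Named genes are the 5 immunoproteasome and PA28 genes, the constitutive counterparts, the lowest and highest of each role, and up to 4 genes per related list. Further members, and further genes of the related lists, were named after their values were seen. Members and lists were chosen with earlier results of these data known. The scripts were tested on simulated data and ran in Python 3.11.15 with statsmodels 0.14.6, matplotlib 3.10.9, pandas 2.3.3 and numpy 2.4.6.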

Additional observations from a re-analysis of the deposited data

How the results depend on the processing

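The results were recomputed with the log2 ratios centered on their median, with lowess correction, with quantile normalization, with values floored at background, with other choices of probe set, with other filters on low values and with fewer members. No result changed direction. *Psmd4* and *Psmf1* were the 2 members above 0 under every setting. The count of members at least 1.2-fold lower was 10, and became 8 after centering (without *Psma4* and *Psmb4*), 7 after lowess correction and 7 after quantile normalization (each without *Psma4*, *Psmb4* and *Psmd7*). It was 9 at a mean log2 signal of at least 10, a filter chosen after seeing the data, which leaves out *Psmc5* by its level, and 10 under all other settings. Quantile normalization gave the proteasome genes other than the immunoproteasome and PA28 genes a median log2 ratio of -0.19, against -0.20 as deposited. This shift was larger than the SD between probe sets divided by the root of the number of genes, the tolerance used for medians in place of a replicate error, and the cause was not tested. No paired analysis was possible because each condition has 1 array. The number of arrays limits the precision, and *Psma8*, below background, and *Psmb11*, just above it, carry little information on direction.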
